A study of Mus musculus with 2 samples.

Results

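The miR-199 and miR-214 genes of the mouse are Mir214, Mir199b, Mir199a-2 and Mir199a-1. They were taken by their Ensembl gene identifiers, and all 4 were found among the 1973 gene rows measured in each library. The tissue was intestine of B6NCrl mouse embryos at 14.5 days of development, untreated as far as the labels say, with small RNA sequenced in 2 biological replicates that form a single group. Inserts were under 30 bases. By the labels each sample is a single intestine, yet its sex is stated as male and female pooled. The dates of collection differ, day 17 for replicate 1 against day 15 for replicate 2 of the same month, and cannot be told apart from the replicate.

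MicroRNAs are cut from hairpin precursors, which can release a mature strand from either arm (5p and 3p). A mature microRNA pairs with messenger RNAs mainly through its seed, bases 2 to 8, and lowers their output. miR-199 and miR-214 are known from mesenchyme, the connective tissue precursor that in the gut surrounds the epithelium. Mir199a-2 and Mir214 are made from a single long transcript, Dnm3os, whose transcription is known to depend on the mesenchymal factor Twist1 and whose loss in mice disturbs skeletal growth. The histone methyltransferase gene Ezh2 is a known target of miR-214 in muscle.

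The mature sequences are shown first because they decide which reads can be given to which gene. They are RefSeq entries on GRCm38.p6, written 5′ to 3′ with the seed in capitals. All 4 genes matched, with 7 entries that hold 4 different sequences.
miR-214-3p: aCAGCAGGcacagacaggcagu
miR-214-5p: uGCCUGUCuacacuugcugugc
miR-199a-5p, from Mir199a-1 and Mir199a-2: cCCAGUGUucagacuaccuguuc
miR-199a-3p and miR-199b-3p, from all 3 miR-199 genes: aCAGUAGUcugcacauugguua

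Both miR-214 sequences were found in no hairpin at another place. miR-199a-5p was found in 1 other hairpin, and the shared 3p sequence in 2 others. Its seed and that of miR-214-3p are alike at 5 of 7 bases, with the substitutions U5C and U8G, where the base of miR-199a-3p is given first and positions count from its 5′ end. Over all 22 bases these 3p sequences agree at 8 positions.

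Mir199b can be told from its relatives on its 5p arm. Without gaps, miR-199a-5p matched bases 26 to 48 of the Mir199b hairpin (chr2:32318485-32318507, plus strand) with 1 difference, C10U, counted from the 5′ end of miR-199a-5p and outside the seed. No other hairpin held the Mir199b stretch. The differing base is in capitals.
miR-199a-5p: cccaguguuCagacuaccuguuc
Mir199b, same place: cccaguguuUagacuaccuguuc

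The hairpins are printed with their RefSeq mature sequences in capitals, to show how much of each precursor lies outside the shared arms. For Mir199b the table used lists miR-199b-3p.
Mir199a-2: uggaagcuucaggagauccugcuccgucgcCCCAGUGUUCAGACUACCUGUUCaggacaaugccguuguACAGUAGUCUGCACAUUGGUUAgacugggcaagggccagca
Mir199a-1: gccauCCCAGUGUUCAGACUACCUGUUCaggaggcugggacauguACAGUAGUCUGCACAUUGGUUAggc
Mir199b: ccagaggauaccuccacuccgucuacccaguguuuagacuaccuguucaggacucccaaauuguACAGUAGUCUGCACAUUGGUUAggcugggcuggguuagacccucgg
Mir214: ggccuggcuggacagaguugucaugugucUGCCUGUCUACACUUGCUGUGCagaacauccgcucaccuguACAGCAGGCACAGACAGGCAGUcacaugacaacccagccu

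The shared stretches of the miR-199 hairpins run past the mature ends. Mir199a-1 and Mir199a-2 hold an identical 27 bases that begin at the first base of miR-199a-5p, so a read of the 5p arm with that start and at most 27 bases fits both genes. Around the 3p arm they share 26 bases, Mir199a-1 and Mir199b share 28, and Mir199a-2 and Mir199b share 27. On the 5p arm Mir199b shares only 17 bases with Mir199a-1 and 18 with Mir199a-2. Identity over aligned bases was 84.1% between Mir199a-1 and Mir199a-2, 88.2% between Mir199a-1 and Mir199b, and 86.7% between Mir199a-2 and Mir199b. Mir214 shared no stretch longer than 7 bases in the same orientation with any of the 3.

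**Figure D1:**
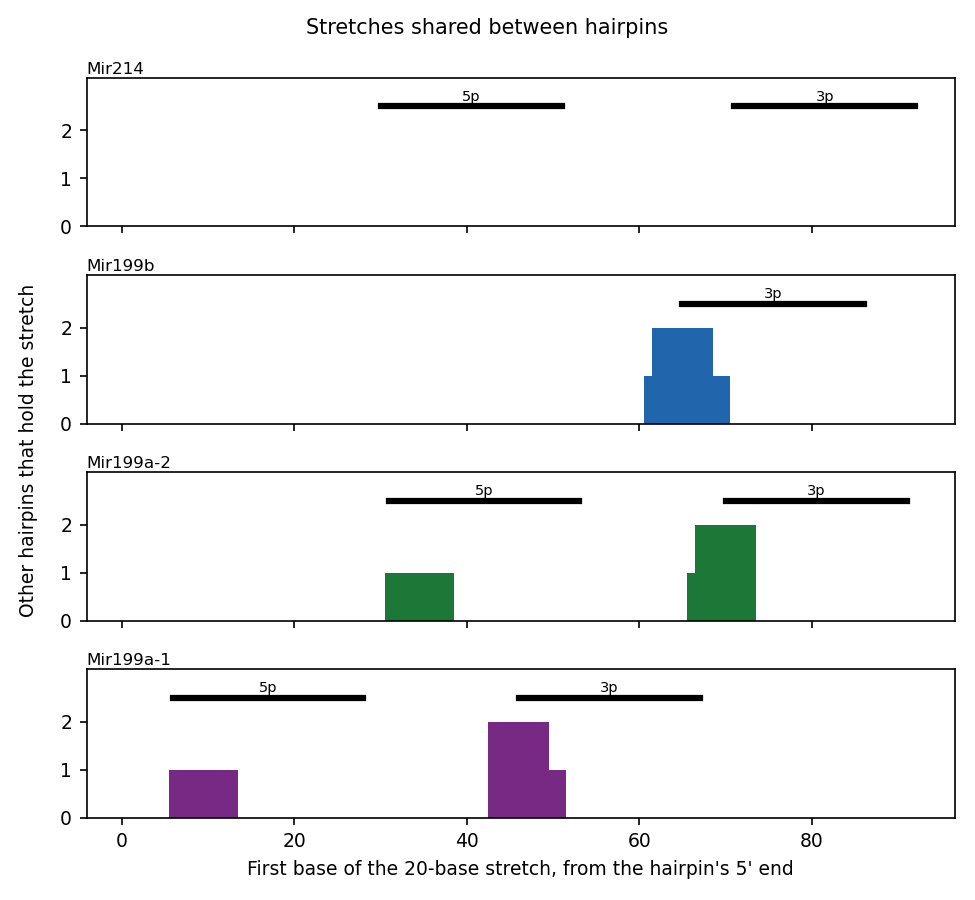
Stretches of 20 bases in each hairpin that also occur in another microRNA hairpin of the RefSeq table. The x axis is the first base of the stretch counted from the 5′ end of the hairpin, the y axis the number of other hairpins that hold it, and black lines mark the listed mature sequences. Shared stretches make up 17 of 51 in Mir199a-1, 16 of 91 in Mir199a-2, 10 of 91 in Mir199b and 0 of 91 in Mir214.

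All 4 genes lie inside a dynamin gene, on the strand opposite to it. Dynamins are enzymes that pinch membrane vesicles off. Mir199a-2 (ENSMUSG00000070126.1, chr1:162217814-162217923, plus strand) and Mir214 (ENSMUSG00000065516.1, chr1:162223368-162223477, plus strand) are 5444 bases apart within Dnm3, which is on the minus strand. No exon of the 12 annotated Dnm3 transcripts overlaps either. On their own strand both lie in Dnm3os (chr1:162217623-162225550), Mir199a-2 overlapping an exon of 5 of its 6 transcripts and Mir214 an exon of 3 of 6. Mir199a-2 begins 191 bases after the start of Dnm3os.

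Mir199b (ENSMUSG00000092807.1, chr2:32318460-32318569, plus strand) lies in Dnm1, which is on the minus strand, overlapping no exon of its 17 transcripts. Mir199a-1 (ENSMUSG00000065547.1, chr9:21496495-21496564, minus strand) lies in Dnm2, which is on the plus strand, overlapping no exon of 14. These coordinates are those of GENCODE M21 on GRCm38. Of the 1894 gene rows matched to that annotation, 237 (12.5%) lie inside a protein-coding gene on the opposite strand only, and of the 363 detected genes 32 (8.82%) do. Detected means 10 or more counts in each library. The members are relatives of each other, so their common position is not a set of independent events.

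Levels are counts on the strand of the gene per 1000000 such counts over all gene rows (CPM). Those totals were 15090126 in replicate 1 and 3903472 in replicate 2. A read counts once for its hairpin gene, whichever arm it came from, so the arms are not separate here and levels are not divided by hairpin length. Reads with several alignments stood apart from all gene rows, at 6977350 reads (26.5% of the table) in replicate 1 and 1864809 (26.6%) in replicate 2. How many of them came from miR-199 was not tested.

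Mir214 was the leading member and stood high among all genes in assigned counts. Genes with copies elsewhere can lose reads with several alignments, so its rank is one of assigned counts and not of microRNA amounts. It had 136880 counts in replicate 1 and 41376 in replicate 2, which are 9071 CPM (Wilson 95% interval 9023 to 9119) and 10599.8 CPM (10499 to 10702). The mean was 9835 ± 1081 CPM (SD, n = 2). Mir214 ranked 24 and 21 among the 363 detected genes in replicates 1 and 2. It held 93.4% of the counts of the 4 genes in replicate 1 and 94.6% in replicate 2. These intervals cover counting error only, since reads without molecular identifiers can be PCR copies.

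Mir199b, a gene of its own at Dnm1, was the highest of the miR-199 genes. It had 7749 counts in replicate 1 and 1883 in replicate 2, or 514 CPM (502 to 525) and 482 CPM (461 to 505), with a mean of 498 ± 22.0 CPM (SD, n = 2). It ranked 128 and 129. Of the counts of the 3 miR-199 genes it held 80.5% (79.7 to 81.3%) in replicate 1 and 79.8% (78.1 to 81.3%) in replicate 2.

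Mir199a-2, the neighbour of Mir214 in Dnm3os, stood far below it. It had 1754 and 438 counts, or 116 CPM (111 to 122) in replicate 1 and 112 CPM (102 to 123) in replicate 2, with a mean of 114 ± 2.85 CPM (SD, n = 2). Its ranks were 189 and 192, near the middle of the detected genes.

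Mir199a-1, the Dnm2 copy, was the lowest of the 4 genes. It had 118 and 40 counts, or 7.82 CPM (6.53 to 9.36) in replicate 1 and 10.2 CPM (7.53 to 14.0) in replicate 2, with a mean of 9.03 ± 1.72 CPM (SD, n = 2). Its ranks were 297 and 283. The limit that a count of 0 allows, set at 3 counts, was 0.199 CPM in the deeper library and 0.769 CPM in the other.

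The order Mir214, Mir199b, Mir199a-2, Mir199a-1 held in both libraries, and no neighbours in it had overlapping intervals. Mir214 exceeded Mir199b 17.7-fold in replicate 1 and 22.0-fold in replicate 2. Mir199b exceeded Mir199a-2 4.42-fold and 4.30-fold. Mir199a-2 exceeded Mir199a-1 14.9-fold (95% interval 12.3 to 18.1) and 10.95-fold (7.91 to 15.5). For the miR-199 genes this is an order of the reads that could be given to a single gene.

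**Figure D2:**
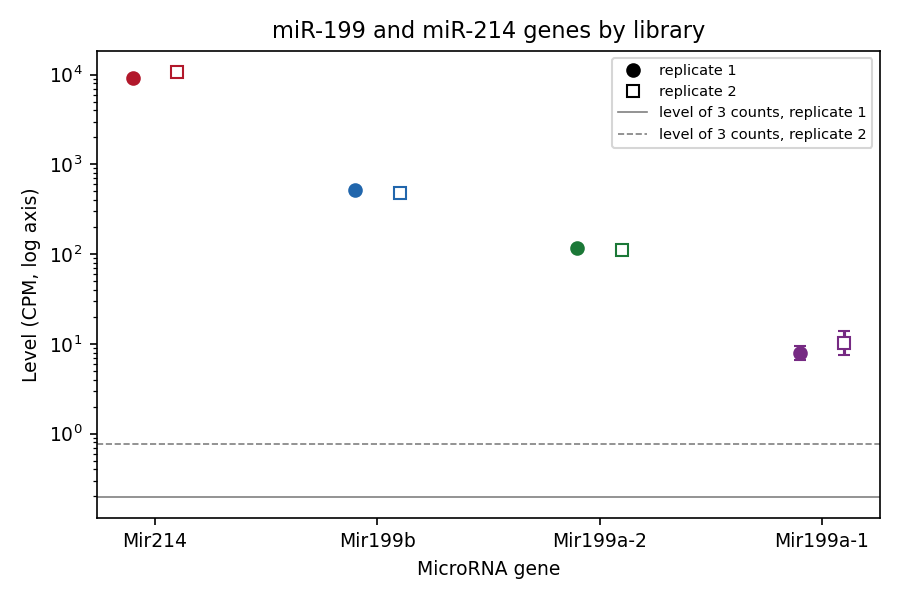
Levels of the 4 genes in each library, in CPM on a log axis, with Wilson 95% intervals. Filled circles are replicate 1, open squares replicate 2, and grey lines mark the level of 3 counts in each library. Both libraries show the same order, from about 9071 and 10599.8 CPM for Mir214 to 7.82 and 10.2 CPM for Mir199a-1.

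The 3 miR-199 genes together gave 0.0638% of the counts in replicate 1 (9621 counts) and 0.0605% in replicate 2 (2361 counts). The 4 genes together gave 0.971% and 1.12%. Mir214 exceeded the sum of the miR-199 genes 14.2-fold (13.9 to 14.5) in replicate 1 and 17.5-fold (16.8 to 18.3) in replicate 2. The sum for miR-199 leaves out every read with several alignments and that for Mir214 has no copy elsewhere, so these ratios compare assigned counts and not the amounts of the microRNAs.

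The levels were therefore set beside those of other genes grouped by shared sequence. Of the gene rows, 916 had mature sequences in the RefSeq table, 334 of them detected. Every listed mature sequence occurred in another hairpin for 35 genes, of which 9 were detected, with a median of 38.2 CPM and a range of 2.75 to 498 CPM. Mir199b had the highest level of these 9, Mir199a-2 the third and Mir199a-1 the seventh. Mir199b is in this group because its listed sequence is the 3p strand, although its 5p stretch is its own.

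No mature sequence was shared for 831 genes, of which 286 were detected with a median of 173 CPM, and Mir214 ranked 20 among these. Some but not all were shared for 50 genes, of which 39 were detected with a median of 66.3 CPM. No test was run between these groups.

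**Figure D3:**
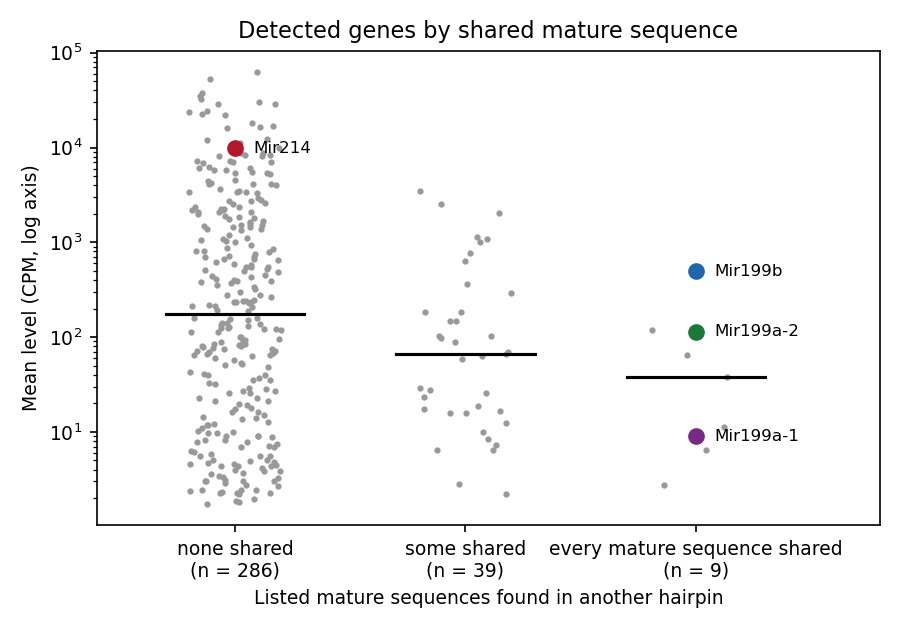
Mean level of each detected gene with a RefSeq mature sequence, in CPM on a log axis, by whether its listed mature sequences also occur in another hairpin. Grey points are genes, coloured points the 4 named genes and bars the medians (173, 66.3 and 38.2 CPM from left to right). Mir214 lies far above its group's median, and Mir199b has the highest level of the 9 genes on the right.

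The libraries were compared for each gene. Values are log2 of replicate 2 over replicate 1, tested by a two-sided exact binomial test of the counts with p-values adjusted by Benjamini-Hochberg over the 363 detected genes. The test compares these 2 libraries and measures no condition. Over all detected genes 108 (29.8%) were called higher in replicate 2 and 51 (14%) lower, at an adjusted p under 0.05. With edgeR's TMM scaling 58 were higher and 84 lower, and with DESeq2's size factors 54 and 90. Of the 4 genes, 1 was called higher and 1 lower, and 2 were not called.

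Mir214 was higher in replicate 2 by 0.22 (counting interval 0.21 to 0.24, 1.17-fold; adjusted p = 1.42e-163 by the exact test). Of the detected genes 34.7% had a larger absolute difference, and the median absolute difference was 0.15. With TMM scaling it was 0.14 and with DESeq2's size factors 0.13, both past the same threshold.

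Mir199b was lower in replicate 2 by 0.09 (interval -0.16 to -0.02; adjusted p = 0.0352 by the exact test). This call was lost with replicate 1 thinned to the depth of replicate 2 (adjusted p = 0.148 by the exact test) and with no minimum count (0.07), and 68.0% of detected genes differed more. With TMM scaling the Mir199b difference was larger, at -0.17, and with DESeq2's size factors it was -0.18, both past the same threshold. Its size thus depended on the scaling. Mir199a-2 differed by -0.05 (interval -0.21 to 0.10; adjusted p = 0.649 by the exact test). Mir199a-1 differed by 0.39 (interval -0.17 to 0.92; adjusted p = 0.237 by the exact test), a difference that was not detectable at its depth. Of the detected genes 18.2% had a larger absolute difference than Mir199a-1. The median over the 4 was 0.09, against 0.06 over all detected genes, and it was 0.004 with TMM scaling and -0.006 with DESeq2's size factors, against -0.02 and -0.04 over all.

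**Figure D4:**
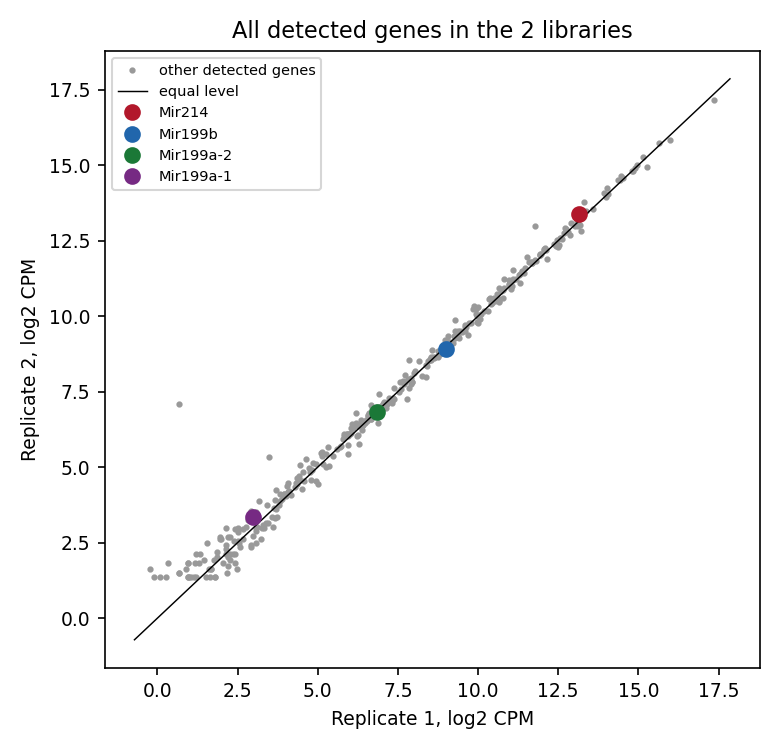
Level of each of the 363 detected genes in replicate 1 (x axis) and replicate 2 (y axis), both as log2 CPM, with the line of equal level. Grey points are other genes. The 4 coloured genes lie near the line from the low to the high levels, at differences between -0.09 (Mir199b) and 0.39 (Mir199a-1) on the log2 scale.

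The proportion within the Dnm3os pair differed between the libraries by more than counting error. Mir214 exceeded Mir199a-2 78.0-fold (74.4 to 81.8) in replicate 1 and 94.5-fold (86.0 to 104) in replicate 2. Mir199a-2 made up 1.27% of the pair in replicate 1 (Wilson 95% interval 1.21 to 1.33%) and 1.05% in replicate 2 (0.954 to 1.15%), and these counting intervals did not overlap. Such a ratio needs no library total. Among 110 pairs of adjacent detected genes on a strand, at most 10 kb apart, the absolute change of the log2 ratio had a median of 0.16. The pair's 0.28 ranked 29. The size of the ratio itself, 6.42 on the log2 scale, ranked 13, against a median of 2.94, which is 7.65-fold. Both mature sequences of Mir199a-2 occur in other hairpins and those of Mir214 do not. The ratio and its rank therefore compare assigned counts and not the amounts of the microRNAs.

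Among the miR-199 genes the counting intervals of the proportions overlapped. Mir199a-2 held 18.2% (17.5 to 19.0%) of the counts of the 3 genes in replicate 1 and 18.6% (17.0 to 20.2%) in replicate 2. Mir199a-1 held 1.23% (1.03 to 1.47%) and 1.69% (1.25 to 2.30%).

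No count lay on the strand opposite any of the 4 genes in either library, though each has a dynamin gene there. Of the 363 detected genes, 41 (11.3%) had such a count. For Mir214 this was 0 beside 136880 and 41376 counts on its own strand. The predicted microRNA gene Gm23363, 116 bases from Mir199b on the same strand, had 4 counts in replicate 1 and 6 in replicate 2, or 0.265 and 1.54 CPM. It was the only other gene row within 10 kb of a member among the 1894 rows with coordinates in the annotation.

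The seed of miR-214-3p is held by 1 further mature sequence in the RefSeq table, that of Mir761 on chromosome 4.
miR-761: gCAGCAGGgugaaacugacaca
miR-214-3p: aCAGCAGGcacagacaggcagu
Mir761 had no count in either library on either strand, which allows a level of at most 0.199 CPM (replicate 1) or 0.769 CPM (replicate 2). Counts assigned to genes with this seed were thus those of Mir214. The seed of the shared miR-199 3p sequence occurred in the 3 miR-199 genes, that of miR-199a-5p in Mir199a-1 and Mir199a-2, and that of miR-214-5p in Mir214, with no further RefSeq gene for any of them.

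The genes closest to each member in log2(CPM + 1) over the 2 libraries were found by Euclidean distance. They were Mir127 (9772 ± 226 CPM; distance 0.13), Mir23a and Mir93 for Mir214, and Mir20b (487 ± 22.4 CPM; distance 0.04), Mir221 and Mir363 for Mir199b. For Mir199a-2 they were Mir345 (118 ± 12.0 CPM; distance 0.13), Mir574 and Mir338, and for Mir199a-1 they were Mir3105 (8.28 ± 1.69 CPM; distance 0.16), Mir19b-2 and Mir147. With 2 libraries this likeness is mostly one of level.

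Other microRNAs linked to mesenchyme, fibroblasts and smooth muscle also differed widely in level. Of 13 such genes measured, 11 were detected, with means from 16.4 CPM (Mir218-1) to 157004 CPM (Mir143, known from smooth muscle), and Mir29b-1 and Mir29b-2 fell short of the minimum. Next came Mir21a (17954 ± 2032 CPM), known from fibrosis, and Mir145a (3582 ± 21.6 CPM), transcribed together with Mir143. Thus Mir214 lay below Mir143 and Mir21a and above the other 11 in assigned counts. Mir218-1, Mir218-2, Mir29b-1 and Mir29b-2 each have a mature sequence that occurs in another hairpin. Their values leave out reads with several alignments and cannot be read as low levels. The exact test called 5 of the 11 higher and 1, Mir143, lower in replicate 2, beside the 29.8% and 14% of all detected genes given above, with a median difference of 0.09. With either TMM scaling or DESeq2's size factors, an alternative added after the data had been seen, 2 were higher and 2 lower.

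Many markers of other cells moved between the libraries as well. Over all detected genes 29.8% were called higher in replicate 2 and 14% lower. With TMM scaling 58 of 363 were called higher and 84 lower. In replicates 1 and 2 respectively, the 5 miR-200 genes of epithelium summed to 35028 and 42892 CPM, with all 5 called higher, and the 4 intestinal epithelial genes Mir192, Mir194-1, Mir194-2 and Mir215 to 8980 and 11362 CPM, with all 4 called higher. With TMM scaling or DESeq2's size factors all 5 and all 4 were called higher as well. The smooth muscle pair Mir143 and Mir145a summed to 171528 and 149642 CPM, with Mir143 called lower. With TMM scaling or DESeq2's size factors both genes of this pair were called lower. The erythroid sum of 3 genes was 258 and 409 CPM, with Mir451a called higher (log2 difference 0.69) and Mir144 and Mir486 not called. Leukocyte Mir223 (0.32), liver Mir122 (0.36), stratified epithelial Mir203 (0.08) and Mir205 (0.39) and endothelial Mir126a (0.04) were called higher too. Leukocyte Mir150 (0.26), neuronal Mir9-3 (0.54) and Mir206 of striated muscle (-0.23) were not called. With TMM scaling or DESeq2's size factors Mir126a was called lower, Mir122 was not called, and 1 of the stratified pair was called higher. The part of these shifts in the 1.17-fold difference of Mir214 was not tested. In whole tissue, fewer cells of a type and less RNA per cell cannot be told apart.

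The labelled tissue bore all 4 intestinal epithelial markers. Endothelial Mir126a had 23478 and 24174 CPM, and the stratified epithelial pair Mir203 and Mir205 together 4954 and 5473 CPM. The sums in replicates 1 and 2 were 392 and 488 CPM for leukocyte genes (2 measured of 3), 39.8 and 51.0 CPM for Mir122, 11.5 and 9.99 CPM for striated muscle (5 of 6, Mir133a-1 at 0), and 5.37 and 7.69 CPM for neuronal genes (5 of 6, Mir124a-2, Mir124a-3 and Mir9-2 at 0). Mir124a, Mir9, Mir1a and Mir133a exist in several copies. As for miR-199, reads that align to several places stand outside the gene rows, so the values of these genes cannot be read as low levels. Of the 5 striated muscle genes measured, 3 had a mature sequence in the RefSeq table used, and none of these 3 shared one with another hairpin. Mir206, which is among them, had a mean of 9.75 CPM. The other striated muscle genes measured had means of at most 0.554 CPM (Mir133b).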

How the data were processed

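Small RNA of 2 libraries was analysed. The deposited values are whole-number read counts per gene on both strands, the strand of the gene and the opposite strand. This reading of the columns comes from the values. The first equals the sum of the others in every row, which does not tell the strands apart. The column read as the strand of the gene totalled 15090126 and 3903472 counts in replicates 1 and 2, and the other 448343 and 124815. Per the files beside the tables, the authors used mm10 and GENCODE M4; the aligner, trimming and counting program are not given in the sources used here. The 4 rows naming no gene were left out of totals. Unaligned reads were 12.4% and 13.8% of the table in replicates 1 and 2, those aligned to several places 26.5% and 26.6%, and those outside genes 2.20% and 2.10%.

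Identifiers were matched without version to GENCODE M21 (1894 of 1973 rows; all 4 members with equal version). Sequences came from RefSeq tables (GRCm38.p6). Sharing means exact occurrence in either orientation in a hairpin at another place among 1005 RefSeq hairpins; the genome itself was not searched. Hairpins were aligned with Biopython 1.88.

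As 1 group leaves no condition to test, each gene's counts were tested against the ratio of the totals. This used an exact binomial test (SciPy 1.17.1), adjusted over all detected genes. The test was run on simulated Poisson counts, the counting model that it assumes. Those hold no PCR copies and no spread between samples, so that run does not check the test against either. p-values measure counting error between these libraries. The library scalings of edgeR 4.0.16 and DESeq2 1.42.0 served as alternatives, besides other count minimums, thinning, both strands, another denominator and each library alone. All members were named, with seed-sharing genes, the 3 nearest genes in level per member, neighbours and fixed lists. Members and lists were chosen with earlier results of these data known.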

Additional observations from a re-analysis of the deposited data

How the results depend on the processing

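Of 60 alternative values for 11 results, 51 were held to be the same, and none reversed. The same means an unchanged call, a move smaller than the spread between the libraries, or a similar number of called genes. Some of these values could not move. The members had no count on the opposite strand, so counting both strands left the ratio at 3.98. A count minimum leaves a log2 difference as it is, so only its adjusted p could change. An unchanged call also covers Mir199b, at -0.09 in the main setting and -0.18 with DESeq2's size factors. The tally is thus no measure of stability. This tally leaves out the calls within the gene lists, where Mir126a turned from higher to lower. It also leaves out the direction of the calls over all genes, which were mostly higher in the main setting and mostly lower with TMM scaling or DESeq2's size factors. Mir199b lost its call with replicate 1 thinned to the depth of replicate 2 (-0.0845) and with no minimum count (-0.0902). With all reads in the table as the denominator the mean levels fell to 5550 CPM for Mir214, 281 CPM for Mir199b, 64.5 CPM for Mir199a-2 and 5.09 CPM for Mir199a-1, and the summed share to 0.590%, by construction. With both strands counted Mir199a-2 stood at 110.8 CPM, through a larger total. Over Mir199a-2 alone, the log2 ratio of Mir214 was 6.42, against 3.98 over all miR-199 genes. The count of genes past the exact binomial test lay between 130 and 169 under the alternatives, against 159. Leaving out a replicate gives the value of the other library, printed with each level, and is no check of stability with 2 libraries. At a minimum of 50 counts Mir199a-1 was not tested. No paired analysis was possible because the design holds a single group.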
